A study of Mus musculus with 6 samples.

Results

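The MYC, MAX and MXD network is a family of transcription factors that pair through a helix-loop-helix and leucine zipper, and its genes were followed here in mouse natural killer (NK) cells generated with IL-18. Its members were taken by name as Myc, Mycn, Max, Mxd1, Mxd3, Mxd4, Mxi1, Mnt, Mlx and Mga. All 10 had a value, each from 1 probe set that the platform annotation assigns to that gene alone, among 19943 genes tested. The 6 arrays split into an IL-18 generated group and an unstimulated group, each with 3 cell preparations that the series calls independent. The labels' protocol describes cells isolated on NK1.1 and kept overnight in medium with 25 ng/ml IL-18 and 300 IU IL-2. IL-18 generated cells were sorted as live NK1.1 positive, CD3 negative cells without CD11b and with c-kit, and unstimulated cells as live NK1.1 positive, CD3 negative cells with CD11b and without c-kit. Stimulus and gate changed together, so IL-18, IL-2, culture and sort cannot be told apart. The labels print this one culture protocol, cytokines included, for the unstimulated samples as well, so whether those cells were cultured or had either cytokine is unclear. The labels name no strain or age for the mice.

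MYC activates genes only as a heterodimer with MAX, and the pair binds the E-box, the short DNA word CACGTG. MXD1, MXD3, MXD4, MXI1 and MNT compete for MAX, bind the same word and recruit SIN3 corepressors, so they oppose MYC. MLX is the partner of the sugar-sensing factors MondoA and ChREBP and can also pair with MXD1, MXD4 and MNT, while MGA pairs with MAX inside a repressive Polycomb complex. In lymphocytes, MYC is known for driving the growth that follows activation, whereas MXD proteins are associated with rest and differentiation.

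Values are log2 numbers that had been centred, probe set by probe set, on the median of the 6 arrays, so they show changes and hold no expression level. A change is given as IL-18 generated minus unstimulated, with its standard error from limma (n = 3 arrays per group throughout). A gene is said to rise or fall at a limma adjusted p below 0.05 over all 19943 genes. The p-values cover only the spread among the 6 arrays, and that small number limits how precise any value can be. No detection calls were at hand, so a small change can also come from a gene that neither group expresses.

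Myc and the genes of the MXD and MNT repressors changed in opposite directions. Myc rose by 1.77 ± 0.12, or 3.41-fold, and Mycn by 0.27 ± 0.08. All 5 measured genes of the MXD and MNT repressors fell, from -1.62 ± 0.09 for Mxd4 to -0.28 ± 0.07 for Mnt, and Mlx fell with -0.31 ± 0.08. Max, the common partner, and Mga did not pass the test. In all, 2 members rose (20.0%), where 19.7% of all genes tested rose, and 6 fell (60.0%), where 16.7% of all genes fell. Of all genes, 36.4% passed in either direction, against 8 of the 10 members. Only 5 members, of 6188 genes in all, passed without IL-18 replicate 2, where Mycn (limma adjusted p 0.0968), Mlx (0.0613) and Mnt (0.0687) did not.

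**Figure D1:**
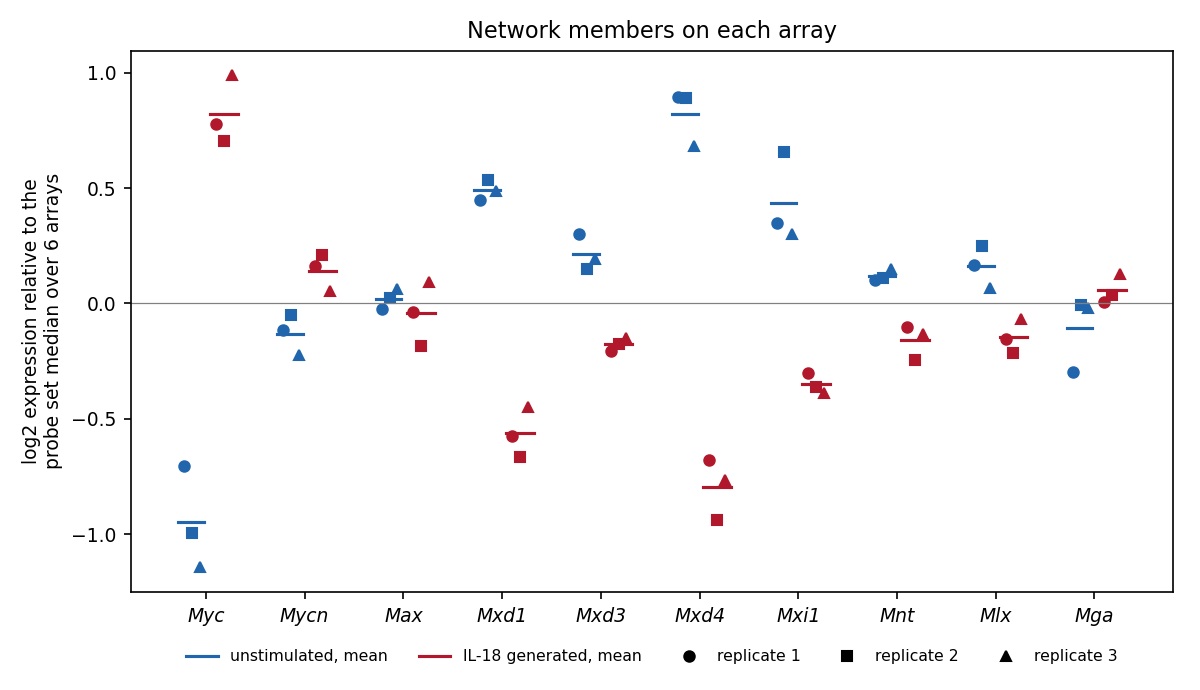
Log2 expression of the 10 members on each array (vertical axis, relative to the probe set median), with unstimulated arrays in blue, IL-18 arrays in red, symbols for the replicates and bars for group means. Myc lies between 0.70 and 0.99 on the IL-18 arrays and between -1.14 and -0.70 on the unstimulated ones, Mxd4 shows the opposite order, and the groups of Max overlap.

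The E-box was looked up in the promoters of the network's own genes, because members of the family can bind there. RefSeq promoter windows (GRCm38.p6, 250 bases before to 50 after an annotated start) were matched for 9 members, all except Myc. The letters CACGTG, which read the same on both strands, stood in the windows of 4 of the 9, namely Max, Mlx, Mnt and Mxd4, and in those of 9.5% of 15617 genes tested that had a window. The 30 bases around each are shown 5′ to 3′ on the gene's strand, with the E-box in capitals:
Max: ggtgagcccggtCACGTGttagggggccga
Mlx: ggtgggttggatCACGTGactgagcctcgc
Mnt: ccccacccaagcCACGTGtgcgcgcgcggt
Mxd4: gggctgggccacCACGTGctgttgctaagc
They lie at chr12:76962234-76962263 (minus strand), chr11:101087238-101087267 (plus), chr11:74830789-74830818 (plus) and chr5:34187912-34187941 (minus). The first base of the E-box is 3 bases before the annotated start in Max, 40 in Mlx, 123 in Mnt and 219 in Mxd4. In Max, Mlx and Mnt this annotated start lies inside the gene coordinates given below. Their distances are therefore not counted from the outer edge of the gene. Part of the 250 bases printed below for Mnt lies within its gene coordinates. Of these 4 genes, Mxd4, Mnt and Mlx fell and Max did not pass. The windows of Mycn, Mxd1, Mxd3, Mxi1 and Mga did not hold these letters, which says nothing about binding elsewhere. A match is a description of the sequence, and the arrays measured no binding.

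The whole 250 bases before the start are given for Mxd4, the member with the largest decrease, and for Mnt, the other repressor gene with an E-box, at chr5:34187711-34187960 (minus strand) and chr11:74830674-74830923 (plus strand), with the E-box in capitals:
Mxd4: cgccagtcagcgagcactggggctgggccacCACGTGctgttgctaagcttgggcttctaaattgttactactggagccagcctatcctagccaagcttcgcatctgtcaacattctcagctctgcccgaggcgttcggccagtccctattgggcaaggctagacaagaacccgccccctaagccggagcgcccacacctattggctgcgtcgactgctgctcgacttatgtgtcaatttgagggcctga
Mnt: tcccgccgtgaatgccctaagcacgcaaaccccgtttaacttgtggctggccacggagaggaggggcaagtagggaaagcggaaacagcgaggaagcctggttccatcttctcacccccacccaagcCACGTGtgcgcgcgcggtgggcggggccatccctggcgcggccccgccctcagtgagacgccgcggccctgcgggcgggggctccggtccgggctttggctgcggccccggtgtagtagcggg

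Myc (chromosome 15, 61985341 to 61990361, GRCm38.p6) encodes the MYC protein that gives the network its name. Its log2 values were 0.78, 0.70 and 0.99 on IL-18 arrays 1, 2 and 3 and -0.70, -0.996 and -1.14 on unstimulated arrays 1, 2 and 3. Every IL-18 array was above every unstimulated array, with a gap of 1.41 between the groups. The change of 1.77 had a 95% interval of 1.51 to 2.04 and a limma adjusted p of 1.37e-06, and it was the increase of rank 152 among the 19943 genes. Mycn (chromosome 12, 12936093 to 12941836) encodes N-MYC, a close relative known from embryonic tissue and neuroblastoma. Its log2 values were 0.16, 0.21 and 0.05 on the IL-18 arrays and -0.11, -0.05 and -0.23 on the unstimulated ones. The groups did not overlap, but the gap was 0.10, and the limma adjusted p was 0.0232. Its call ended when any of IL-18 replicates 1 and 2 or unstimulated replicates 1 and 3 was left out, with changes from 0.23 to 0.28 and limma adjusted p from 0.0511 to 0.0968.

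Max (chromosome 12, 76937269 to 76962323) encodes the partner that MYC, the MXD proteins, MNT and MGA share. The IL-18 arrays gave log2 values of -0.04, -0.18 and 0.09, and the unstimulated arrays -0.02, 0.02 and 0.06. The groups overlapped, and the change of -0.06 ± 0.09 had a 95% interval of -0.26 to 0.13 (limma adjusted p 0.59). The within-array difference of Myc and Max was taken to compare their changes. Myc minus Max was 0.82, 0.89 and 0.90 on the IL-18 arrays and -0.68, -1.02 and -1.21 on the unstimulated ones, a shift of 1.84. The groups did not overlap, and the two-sided exact permutation p was 0.1, the smallest that 3 against 3 arrays can give.

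Mga (chromosome 2, 119872503 to 119970129) encodes the large MAX partner that also carries a T-box domain. On the log2 scale it stood at 0.0049, 0.04 and 0.13 on IL-18 arrays and at -0.30, -0.0049 and -0.02 on unstimulated arrays. The groups were apart by only 0.01, and unstimulated replicate 1 was the lowest array. The change was 0.17 ± 0.09 (95% interval -0.04 to 0.37, limma adjusted p 0.202), and it was 0.07 without that array (limma adjusted p 0.574).

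**Figure D2:**
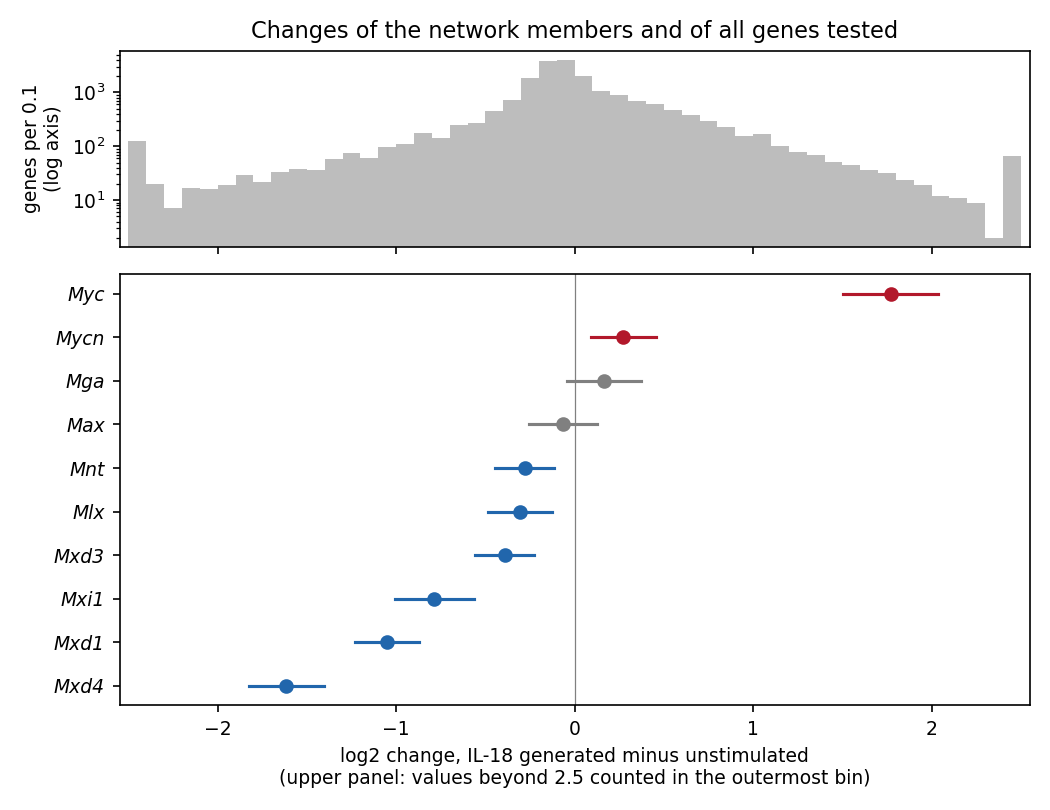
Lower panel, log2 change of each member with its 95% interval (red higher, blue lower, grey adjusted p of 0.05 or above), and upper panel, the number of genes per 0.1 of log2 change over all 19943 genes on a log axis. Myc at 1.77 and Mxd4 at -1.62 lie far out in the distribution of all genes, while Max and Mga have intervals that include 0.

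Among the repressors, the largest decreases were those of Mxd4 and Mxd1. Mxd4 (chromosome 5, 34176580 to 34187710) encodes a MAX dimerization protein that recruits SIN3. Its log2 values were -0.68, -0.94 and -0.77 on the IL-18 arrays and 0.90, 0.89 and 0.68 on the unstimulated ones. The groups were 1.36 apart, and the change of -1.62 ± 0.09 was a 3.07-fold decrease (limma adjusted p 5.58e-07). Mxd1 (chromosome 6, 86647044 to 86669234) encodes MAD1, the founding MXD protein, known to be induced as blood cells mature. The IL-18 arrays gave log2 values of -0.58, -0.66 and -0.45, and the unstimulated arrays 0.45, 0.53 and 0.49. The unstimulated arrays lay close together and 0.90 above the highest IL-18 array, and the change of -1.05 ± 0.08 was a 2.08-fold decrease (limma adjusted p 3.27e-06). With a change of at least 2-fold required as well, 1 member was higher (Myc), as were 3.62% of all genes, and 2 were lower (Mxd4 and Mxd1), as were 3.24% of all genes, or 6.86% in either direction.

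Mxi1 (chromosome 19, 53310128 to 53373293) encodes the MAX interactor also called MXD2. On the log2 scale it stood at -0.30, -0.36 and -0.39 on IL-18 arrays and at 0.35, 0.66 and 0.30 on unstimulated arrays. Unstimulated replicate 2 was the highest, the groups did not overlap, and the change was -0.79 ± 0.10 (limma adjusted p 0.000112). Mxd3 (chromosome 13, 55325170 to 55329900) encodes the member that, unlike its relatives, is known from dividing progenitors in S phase. Its log2 values were -0.21, -0.18 and -0.15 on the IL-18 arrays and 0.30, 0.15 and 0.19 on the unstimulated ones. The groups did not overlap, and it fell with -0.39 ± 0.08 (limma adjusted p 0.0019).

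Mnt (chromosome 11, 74830806 to 74845725) encodes the broadly expressed repressor that holds MAX in resting and dividing cells alike. The IL-18 arrays gave log2 values of -0.10, -0.24 and -0.13, and the unstimulated arrays 0.10, 0.11 and 0.15. The groups did not overlap, and the limma adjusted p of the change was 0.0129. Mlx (chromosome 11, 101086707 to 101092207) encodes the MAX-like partner of the Mondo proteins. On the log2 scale it stood at -0.15, -0.22 and -0.07 on IL-18 arrays and at 0.17, 0.25 and 0.07 on unstimulated arrays. The lowest unstimulated array was 0.13 above the highest IL-18 array, and the limma adjusted p was also 0.0129. As given above, the calls of Mnt and Mlx ended without IL-18 replicate 2.

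Across the members, 9 of 10 had groups that did not overlap, and so did 48.6% of all genes. The IL-18 arrays were the higher in 3 of them (Myc, Mycn and Mga), as for 22.9% of all genes, and the lower in 6, as for 25.7% of all genes. Differences between pairs of members were taken within each array. The groups did not overlap for 40 of the 45 pairs, and for 55.3% of all pairs of genes tested; a high count follows from the members' own changes given above and is no separate result. Each of the 40 had the smallest two-sided exact permutation p of 0.1. The 5 pairs with overlap were Mycn and Mga, Mxd1 and Mxi1, Mxd3 and Mnt, Mxd3 and Mlx, and Mnt and Mlx. With 3 arrays a group, no pair could pass a threshold of 0.05, with or without adjustment over the 45.

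The relation of Myc to its repressors can be read per array. The mean of Mxd1, Mxd3, Mxd4, Mxi1 and Mnt was -0.37, -0.48 and -0.38 on IL-18 arrays 1, 2 and 3 and 0.42, 0.47 and 0.36 on unstimulated arrays 1, 2 and 3. Myc minus this mean was 1.15, 1.18 and 1.37 on the IL-18 arrays and -1.12, -1.46 and -1.51 on the unstimulated ones, a shift of 2.60 on the log2 scale. Relative to the repressors, Myc was higher on every IL-18 array than on any unstimulated array. This is a summary of the members with no test, and it weights each repressor equally whatever its level.

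**Figure D3:**
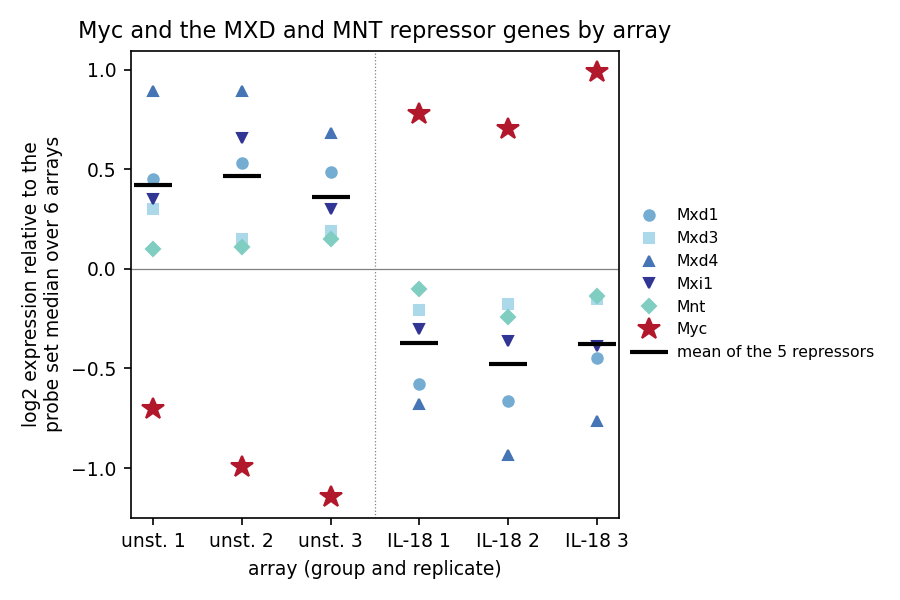
Log2 expression (vertical axis, relative to the probe set median) of Myc (stars) and of the 5 repressor genes on each array, with black bars for the mean of the repressors. On the 3 unstimulated arrays all repressors lie above 0 and Myc below it, and on the 3 IL-18 arrays the order is turned.

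Markers of monocytes and neutrophils, and most of those of B cells, were lower in the same comparison. All 9 measured monocyte markers fell (median -3.14, Lyz2 most with -7.16 ± 0.15), as did all 10 neutrophil markers (median -2.99, Ngp most) and 6 of 7 B cell markers (median -0.42, Ighm most). The mean of the neutrophil markers lay between -1.31 and -1.02 on the IL-18 arrays and between 1.19 and 2.48 on the unstimulated ones, and that of the monocyte markers between -1.52 and -1.39 and between 1.35 and 1.90. B cell markers lay between -0.50 and -0.23 and between 0.19 and 0.82. Unstimulated replicate 2 had the highest neutrophil mean and also the highest Mxi1, Mxd1 and Mlx of its group. Mxd4 and Mxd3 were highest on unstimulated replicate 1, where the B cell mean was also highest (0.82). Mnt was highest on unstimulated replicate 3, where the monocyte mean was also highest (1.90). Within the unstimulated group the neutrophil mean spanned 1.29, Mxi1 0.35, Mlx 0.18, Mxd1 0.08, Mxd4 0.22, Mxd3 0.15 and Mnt 0.05. Without unstimulated replicate 2, the same number of members passed, 2 higher and 6 lower, with -0.68 for Mxi1 and -1.03 for Mxd1. The neutrophil means of unstimulated arrays 1 and 3, which remained, were 1.20 and 1.19, still above those of all IL-18 arrays. The part of other cell types in the decreases of the repressor genes was not tested, and in bulk RNA fewer cells of a type and less RNA per cell cannot be told apart.

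The sort and the cell type were checked against their markers. Kit (c-kit) rose and Itgam (CD11b) fell, as the gates chose them. All 10 NK cell markers fell (median -0.92), from -0.40 for Il2rb to -2.21 for Itga2, including Klrb1c, the NK1.1 gene, and since the values hold no level, presence of these markers cannot be read. Of 9 T cell markers, Cd3d, Cd3e and Cd3g rose, although both gates were CD3 negative, and 6 did not pass (median -0.02). Proliferation markers were mixed, with 4 of 11 higher and 3 lower (median 0.05), and their mean on IL-18 arrays 1, 2 and 3 was -0.28, 0.24 and -0.01, a wider spread than in the unstimulated group.

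Genes that MYC is known to activate rose with it. Of 45 measured genes on a list of textbook targets, 42 rose (93.3%, where 19.7% of all genes did), 1 fell and 2 did not pass, and the median change was 1.27, against -0.06 over all genes. The 4 largest increases were in genes of nutrient uptake and one-carbon or branched-chain amino acid metabolism. Slc7a5, a large amino acid transporter, rose 13.1-fold, with log2 values of 1.89, 1.69 and 1.89 on the IL-18 arrays and -1.69, -1.75 and -2.21 on the unstimulated ones. Tfrc, the transferrin receptor, rose by 3.31 ± 0.11, or 9.94-fold. Bcat1, a branched-chain aminotransferase, rose by 2.83 ± 0.16, and Shmt2, the mitochondrial serine hydroxymethyltransferase, by 2.54 ± 0.09. Limma adjusted p for these 4 was at most 4.75e-07. The groups did not overlap for 43 of the 45 genes of the list, and for 48.6% of all genes.

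The exceptions on the activated list were cell cycle and telomerase genes. E2f2, a transcription factor of S phase entry, was the only one of the list to fall, with -1.20 ± 0.08 (limma adjusted p 1.07e-06), while its relative E2f1 rose by 0.91 ± 0.08. Ccnd2 (cyclin D2) had a change of -0.10 ± 0.11 and Tert (telomerase) one of -0.03 ± 0.08, and neither passed. Many genes of this list also belong to ribosome building or amino acid supply, and they were listed with earlier results of these data known, so their direction is no independent evidence on MYC.

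E-boxes were found in the promoter windows of 11 of the 38 activated targets that had one (28.9%), of 3 of 10 repressed targets (30.0%), and of 9.5% of all genes tested with a window, so the share was much the same in both target lists. The 30 bases around 1 E-box each before the start are shown for 4 of them that were picked for their different roles and encode, in turn, a cell cycle kinase, a DNA repair enzyme, a mitochondrial chaperonin and a nucleotide kinase, with the E-box in capitals:
Cdk4: aagggtgaagatCACGTGtccagaacgtcc
Apex1: gcgctccagaacCACGTGggggcggagccc
Hspd1: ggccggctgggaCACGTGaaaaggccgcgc
Nme1: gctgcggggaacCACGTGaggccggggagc
The sites are at chr10:127063512-127063541 (plus strand), chr14:50924913-50924942 (plus), chr1:55088306-55088335 (minus) and chr11:93968273-93968302 (minus). The window of Cdk4 held 4 E-boxes and that of Apex1 held 3. Cdk4 rose by 0.74 ± 0.08, Apex1 by 1.80 ± 0.14, Hspd1 by 2.13 ± 0.11 and Nme1 by 1.52 ± 0.10. Odc1 (ornithine decarboxylase), a classic MYC target, rose by 2.45 ± 0.09. No promoter window with these letters was found for Odc1, Shmt2, Tfrc or Bcat1, which says nothing about sites outside such windows.

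Genes that MYC is known to repress mostly fell. The median of the 14 measured was -0.53, with 9 that fell (64.3%, where 16.7% of all genes did), 3 that rose and 2 that did not pass. Hes1, a Notch target, fell with -1.52 ± 0.13, the myeloid factor gene Cebpa with -1.47 ± 0.13, the integrin gene Itgal with -1.33 ± 0.08 and Thbs1 (thrombospondin) with -0.98 ± 0.09. Myeloid cells express Cebpa and Thbs1, and the monocyte and neutrophil lists above had medians of -3.14 and -2.99; their part in these decreases was not tested. The cell cycle inhibitor genes did not move together: Cdkn1b (p27) fell with -0.55 ± 0.08 and Cdkn2c with -0.34 ± 0.09, whereas Cdkn2b (p15) rose by 0.45 ± 0.13. Gadd45b, a stress gene, rose by 1.74 ± 0.09, from values between -1.08 and -0.80 to values between 0.80 and 0.86, and Klf6 rose by 0.30 ± 0.09. The call of Cdkn2b ended without IL-18 replicate 1 (limma adjusted p 0.0687), that of Cdkn2c without IL-18 replicate 1 or 3 (0.0678 and 0.0679), and that of Klf6 without IL-18 replicate 1 or 3 or unstimulated replicate 1 (0.0981, 0.0557 and 0.0546).

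**Figure D4:**
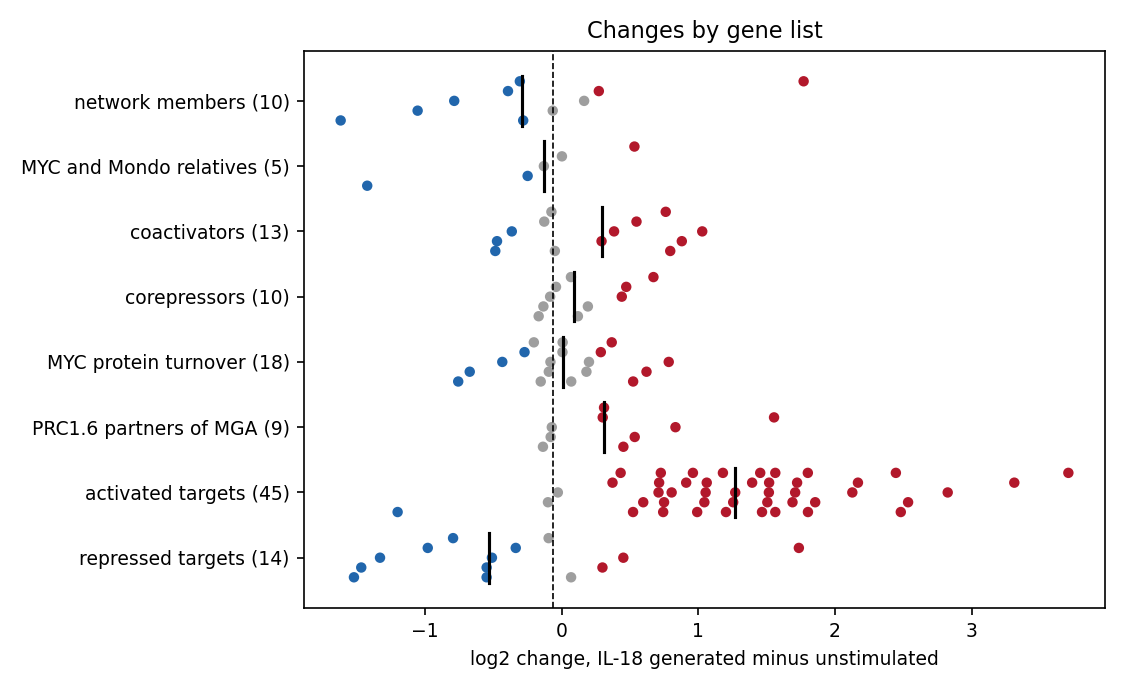
Log2 change of each measured gene (points, red higher, blue lower, grey adjusted p of 0.05 or above) in the network and 7 related lists, with the number of genes in brackets, black bars for list medians and a dashed line for the median of all genes, -0.06. The activated targets lie almost wholly to the right with a median of 1.27, and the repressed targets mostly to the left with a median of -0.53.

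Among genes for proteins that work with MYC on chromatin, more rose than fell. The list held 13 measured coactivator genes with a median change of 0.29, of which 7 rose (53.8%, where 19.7% of all genes did) and 3 fell (23.1%, where 16.7% did). The helicase genes Ruvbl2 and Ruvbl1 rose by 1.03 ± 0.10 and 0.80 ± 0.08, the acetyltransferase gene Kat2a (GCN5) by 0.88 ± 0.08 and Actl6a (BAF53a) by 0.76 ± 0.08. The related acetyltransferase genes Crebbp and Ep300 fell with -0.49 ± 0.07 and -0.47 ± 0.08, as did Bptf with -0.36 ± 0.10. Trrap, the scaffold that MYC binds, did not pass, at -0.07 ± 0.09, nor did Ep400 and Paf1. Bptf was no longer called without IL-18 replicate 1 (limma adjusted p 0.0691) and on 1 of its 2 probe sets (0.0832).

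Most corepressors of the MXD proteins did not pass the test. Their list also held Zbtb17, the gene of a MYC partner. The 10 genes measured had a median of 0.09. By limma 3 rose, Zbtb17 among them (30.0%, against 19.7% of all genes), and 0 fell. The remaining 7 were Sin3a, Sin3b, Hdac1, Sap30, Sap18, Rbbp4 and Suds3. At an unadjusted p under 0.05 in limma, 4 genes of this list, Zbtb17 included, were higher and 1, Suds3, was lower. The share of all genes at this looser threshold is not at hand, so these counts cannot be set beside it. Sin3a and Sin3b, the scaffolds, had changes of -0.04 ± 0.08 and -0.08 ± 0.07. The histone deacetylase gene Hdac2 rose by 0.67 ± 0.09 and the histone-binding gene Rbbp7 by 0.44 ± 0.08, and Zbtb17, which encodes MIZ-1, the partner through which MYC represses, rose by 0.47 ± 0.09. Without unstimulated replicate 2, 5 of the 10 rose, with Rbbp4 (limma adjusted p 0.0449) and Sap18 (0.0360) added, and 8586 genes passed in all.

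Several partners of MGA rose, while Mga itself did not pass. Its Polycomb complex, PRC1.6, was represented by 9 genes with a median of 0.31; by limma 6 rose (66.7%, against 19.7% of all genes) and 0 fell, and Rybp, Yaf2 and Rnf2 did not pass. At an unadjusted p under 0.05 in limma the counts were also 6 higher and 0 lower. The share of all genes at that threshold is again not at hand. Without IL-18 replicate 1, IL-18 replicate 3 or unstimulated replicate 3, 4 of the 9 rose. In these fits 6388, 6083 and 6167 genes passed in all. Pcgf6, the subunit that defines this complex, rose 2.94-fold, with log2 values of 0.68, 0.67 and 0.91 on the IL-18 arrays and -0.94, -0.79 and -0.67 on the unstimulated ones (limma adjusted p 8.88e-07). Tfdp1 rose by 0.83 ± 0.07, E2f6 by 0.54 ± 0.10 and L3mbtl2 by 0.45 ± 0.07. The difference between these changes and that of Mga was not tested.

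Regulators of MYC protein stability were called at shares near those of all genes. The median of the 18 measured was 0.01, and 5 rose (27.8%, against 19.7% of all genes), 4 fell (22.2%, against 16.7%) and 9 stayed short of the threshold. The deubiquitinase genes Usp36 and Usp37 rose by 0.78 ± 0.09 and 0.62 ± 0.10, and the ubiquitin ligase genes Huwe1 and Trim32 by 0.52 ± 0.09 and 0.37 ± 0.07. Plk1, a mitotic kinase, fell with -0.76 ± 0.19, the ligase gene Fbxo32 with -0.67 ± 0.11, the phosphatase subunit gene Ppp2r5a with -0.43 ± 0.09 and Fbxl14 with -0.27 ± 0.08. Fbxw7, the best known ubiquitin ligase of MYC, and the kinase Gsk3b that marks MYC for it had changes of 0.07 ± 0.08 and -0.08 ± 0.08 and did not pass. The call of Fbxl14 ended without IL-18 replicate 3 (limma adjusted p 0.0760) or unstimulated replicate 1 (0.0580).

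On the Mondo side of the network, Txnip fell with -1.42 ± 0.13 (limma adjusted p 1.08e-05). Txnip, a restraint on glucose uptake and a classic target of MLX and MondoA, had log2 values of -0.55, -1.08 and -0.71 on the IL-18 arrays and 0.55, 0.78 and 0.58 on the unstimulated ones. Its relative and fellow target Arrdc4 rose instead, by 0.53 ± 0.13 (limma adjusted p 0.00822), with IL-18 values of 0.65, 0.52 and 0.08 and unstimulated values between -0.15 and -0.08. The MondoA gene Mlxip had a change of 0.00 ± 0.09 and the ChREBP gene Mlxipl one of -0.13 ± 0.09, and neither passed. Mycl, the third MYC gene, fell with -0.25 ± 0.09 (limma adjusted p 0.046). Its call ended when arrays were centred on their median (0.0625), with every probe set as a feature (0.0530), and when any array other than unstimulated replicate 2 was left out (from 0.0524 to 0.161).

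The genes whose 6 values lay nearest to those of Myc, by root mean square difference over the 6 arrays, were Mybbp1a (0.11), a nucleolar MYB-binding protein, Furin (0.11), a protein convertase, Abcc1 (0.12), a transporter, Trmt61a (0.13), a tRNA methyltransferase subunit, and Taf4b (0.13), a TFIID subunit. Their changes ran from 1.62 for Taf4b to 1.89 for Abcc1. Nearest to Mxd4 were Cd48 (0.08), a ligand of the NK receptor 2B4, Fam117a (0.10), Cited2 (0.10), a CBP-binding regulator, Tcn2 (0.105), a vitamin B12 carrier, and Scarna17 (0.11), a small Cajal body RNA. Their changes ran from -1.63 for Cited2 to -1.44 for Fam117a.

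**Figure D5:**
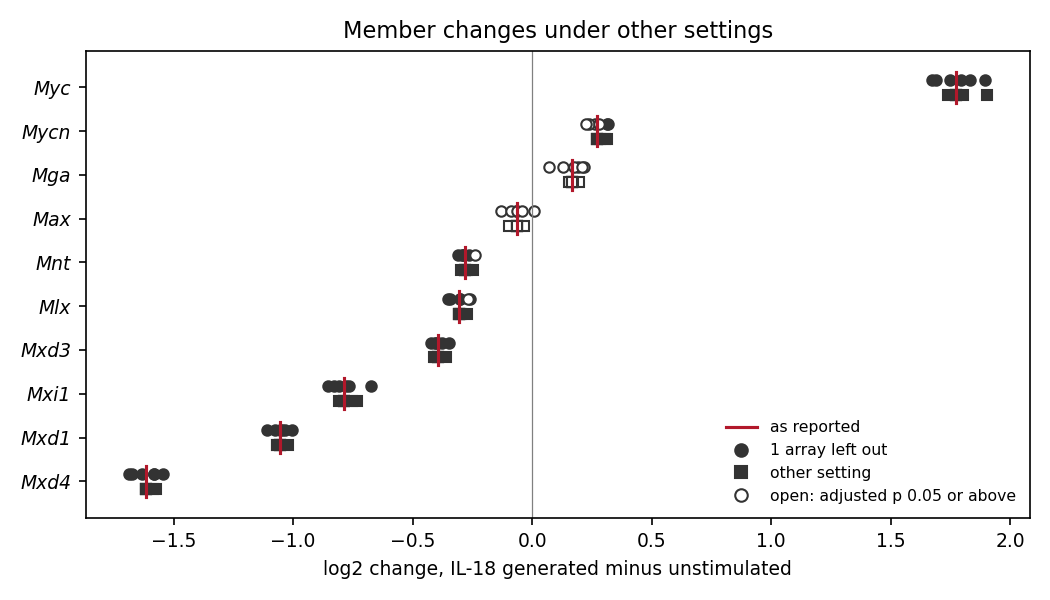
Log2 change of each member as reported (red line), with 1 array left out (circles) and under other settings (squares), open symbols standing for an adjusted p of 0.05 or above. Myc, Mxd4, Mxd1, Mxi1 and Mxd3 keep filled symbols throughout, and Mycn, Mlx and Mnt have open circles when single arrays are left out.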

How the data were processed

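Biotin-labelled total RNA was hybridised to 1-colour Affymetrix arrays, per the labels. The deposited table holds the authors' log2 values of 28815 probe sets. The log base was read from the values. The widest range within a probe set was 7.77, where log10 of a 16-bit signal reaches 4.82, and 44 of 239 probe sets too wide for natural logarithms of numbers above 8 lay on the single-precision grid of such numbers, within 0.15 of a step. The sources used here do not give summarization and normalization, and each probe set had been centred on its median. Of the probe sets, 21788 carried 1 gene symbol, 1597 several and 5430 were not listed, and probe sets were averaged per gene.

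The contrast was fitted over 19943 genes by lmFit and eBayes without covariates (limma 3.58.1, R 4.3.3), with Benjamini-Hochberg adjustment. On simulated data for this contrast with 19943 genes, calls recovered 62.7% of the 67 genes set to a log2 change of 0.5, 98.5% of the 67 set to 1 and 100% of the 66 set to 2, with 1 false call. Only those genes were changed, under independent normal noise, whereas 36.4% of all genes passed in the data. The recovered shares therefore need not hold for the data. Tables and figures used Python 3.11.15, pandas 2.3.3 and matplotlib 3.10.9. Alternatives were quantile normalization, centring, array weights, robust eBayes, other handling of probe sets, the replicate number as a block, stricter thresholds, and each array left out.

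The members and lists were chosen with earlier results of these data known. By rule, all members, up to 4 genes per list and direction that passed, the largest marker changes and the 5 nearest patterns were named. Other list genes (Ccnd2, Tert, E2f1, Trrap, Sin3a, Sin3b, Fbxw7, Gsk3b, Mlxip, Mlxipl, Cdkn1b, Cdkn2c, Odc1, Cd3d, Cd3e, Il2rb, the printed targets with E-boxes and list genes that did not pass) were named for their role after their values were seen. Of 179 list genes outside the network, 170 were measured.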

Additional observations from a re-analysis of the deposited data

How the results depend on the processing

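Counts of calls moved by more than 1.5 times mainly with the threshold. With a 2-fold change required as well, 1368 genes passed in all, 3 members, 1 coactivator, 0 corepressors and 0 turnover genes (limma calls in the report's setting were 3 and 9), 1 PRC1.6 gene and 4 repressed targets. At an adjusted p below 0.01, 5 members passed, of 5285 genes in all. With 1 array left out, 6083 to 8586 genes, 5 to 8 members and 3 to 5 genes of the corepressor list passed. Deviations of same-numbered arrays from their group means had correlations of 0.238, 0.007 and -0.02. Those of differently numbered arrays ran from -0.293 to 0.248. With 3 arrays a group, such correlations cannot decide whether same-numbered arrays belong together. Genes called with the replicate block were 7279, among them 8 members, and of the 97 genes followed singly, Mycl lost its call (adjusted p 0.0563). Of 1361 values of these genes under the alternatives, 24 lost their call, 5 gained one (Rbbp4 and Sap18) and 0 called values changed sign. For Max, which was not called, the change ran from -0.13 to 0.01. Centred values allow no filter on dim genes, so depth of signal over background could not be judged.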
